A study of Homo sapiens with 6 samples.

Results

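A set of 898 regions of accessible chromatin was found in all 3 knockout libraries and in none of the 3 wild-type libraries when every peak list was held to the same length. The libraries were made by ATAC-seq, a method that uses a transposase to insert sequencing adapters wherever DNA is open, from ARP1, a human myeloma line. Multiple myeloma is a malignancy of plasma cells, which secrete antibodies. The libraries came from cells with a knockout of KDM6A (KO, replicates 1 to 3) and from wild-type cells (WT, replicates 1 to 3). The labels call the libraries biological replicates and the sources used here do not give the clone, the editing method or the cultures, so the spread between libraries may be technical. The regions were chosen by the authors' −log10 p of their peaks: each list was shortened to its 33055 strongest peaks on chromosomes 1 to 22, X and Y, which is the length of the shortest list, and peaks of the 6 lists that overlapped by 1 bp or more were joined. The regions called in 3 of 3 KO lists and 0 of 3 WT lists are called KO-only here. They made up 1.85% of 48656 merged regions, and 3.82% of the 23514 regions called in all 3 KO lists. The converse regions, WT-only, numbered 1963, which is 4.03% of the merged regions and 7.24% of the 27110 regions present in all 3 WT lists. Another 20727 regions were called in all 6 lists. Because presence in KO and absence in WT chose the members, their difference between genotypes is a description and was not tested.

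KDM6A, also known as UTX, demethylates lysine 27 of histone H3, erasing the mark laid down by the polycomb complex around EZH2 and EED on silenced genes. It also works in the KMT2C and KMT2D complexes, which methylate histone H3 at enhancers, and it cooperates with SWI/SNF chromatin remodellers. KDM6A is recurrently lost in myeloma.

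The strongest members that lay over a gene start with a known strand were at SYT3, PDE11A, WIZ and ZNF160. Their promoter windows, from 250 bases before to 50 bases after the start, are printed from RefSeq (GRCh38.p14, 5′ to 3′ on the minus strand, on which all 4 genes lie). Base composition over all such windows is described further down. Capitals mark exact matches on either strand to the motifs searched, namely the GC box GGGCGG in SYT3, WIZ and ZNF160, the CCAAT box CCAAT in PDE11A, and the ETS core CCGGAAG near the end of ZNF160. A match is a run of letters and not a measured binding site.
SYT3, chr19:50658056-50658355: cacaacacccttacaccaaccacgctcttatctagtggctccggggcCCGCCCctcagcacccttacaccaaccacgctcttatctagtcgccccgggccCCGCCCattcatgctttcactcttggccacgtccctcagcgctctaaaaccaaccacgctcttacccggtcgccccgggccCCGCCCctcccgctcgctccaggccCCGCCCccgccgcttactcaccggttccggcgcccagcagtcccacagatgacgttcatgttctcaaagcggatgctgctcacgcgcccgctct
PDE11A, chr2:178072728-178073027: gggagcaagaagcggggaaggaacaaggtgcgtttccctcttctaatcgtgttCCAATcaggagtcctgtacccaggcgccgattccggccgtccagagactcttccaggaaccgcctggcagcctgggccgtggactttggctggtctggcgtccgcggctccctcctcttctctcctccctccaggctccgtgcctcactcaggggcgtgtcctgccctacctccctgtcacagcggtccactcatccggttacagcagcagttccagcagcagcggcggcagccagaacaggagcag
WIZ, chr19:15449907-15450206: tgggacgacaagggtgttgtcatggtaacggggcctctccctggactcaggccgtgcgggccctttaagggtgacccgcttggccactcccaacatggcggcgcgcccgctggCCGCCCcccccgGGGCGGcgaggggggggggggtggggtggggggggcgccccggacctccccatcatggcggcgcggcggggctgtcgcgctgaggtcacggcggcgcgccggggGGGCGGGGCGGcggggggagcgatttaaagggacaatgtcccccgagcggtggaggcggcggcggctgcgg
ZNF160, chr19:53103373-53103672: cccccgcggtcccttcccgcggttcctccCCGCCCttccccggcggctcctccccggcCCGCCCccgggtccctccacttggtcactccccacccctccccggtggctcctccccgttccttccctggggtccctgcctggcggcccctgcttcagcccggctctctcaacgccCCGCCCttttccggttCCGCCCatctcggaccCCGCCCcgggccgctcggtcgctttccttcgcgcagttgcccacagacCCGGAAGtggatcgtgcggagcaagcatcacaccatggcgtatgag
The 4 windows held 65.3%, 63.7%, 77.0% and 72.7% G and C in the order printed, against a median of 62.3% over the 22198 promoter windows of protein-coding genes. SYT3 and PDE11A lay below the median of 66.3% for windows at regions called in all 6 lists. PDE11A alone among the 4 had no GC box.

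The lists behind the regions differed in depth. Full lists held 33055, 37314 and 36055 peaks in KO replicates 1 to 3, and 54443, 54470 and 56048 in WT replicates 1 to 3. Read totals are unknown, but the background pileup recovered from the deposited folds was 2.31 ± 0.26 reads in KO and 3.52 ± 0.36 in WT (mean ± SD, n = 3 each). The weakest peak kept had a fold over background of 3.31, 4.26 and 3.65 in the KO libraries, against 5.13, 5.59 and 5.45 in the WT libraries. A region could therefore enter a KO list at a lower fold than a WT list, although the lists were equally long. The KDM6A start (chrX:44872212-44874149) had a peak in every list, and its fold was 13.05 ± 1.86 in KO and 11.0 ± 2.44 in WT, and no KO-only region lay within 50 kb of the gene. An open start does not show whether the coding sequence was edited, so it does not check the genotype labels. The starts of 7 of 9 plasma cell markers, among them SDC1, IRF4, PRDM1 and TNFRSF17, were called in all 6 full lists, and SLAMF7 and JCHAIN were called in 0 of 3 KO and in 2 and 3 of 3 WT full lists. Of 15 markers of other cells, 8 were called in no full list, including LYZ, CSF1R and GATA1, while CD3E and COL1A1 were called in all 6. COL1A2 and PAX5 were called in 2 KO and 3 WT full lists, CEBPA and HBA1 in 3 KO and 2 WT lists, and KRT18 in 1 WT list. Among the 15, CEBPA and HBA1 had a KO-only region within 50 kb.

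Most KO-only regions were weak peaks that WT cells also had, below the WT limit. The median fold of the 898 members was 5.12, 5.25 and 5.05 in the KO libraries. In the full WT lists a peak stood at 679, 707 and 657 of the members, with a median fold of 4.27, 4.62 and 4.19. Members thus sat low in both genotypes, beside medians of 9.26 to 10.8 in KO and 12.2 to 14.3 in WT libraries at regions called in all 6. A full WT peak was present in all 3 WT lists at 503 members (56.0%), in 2 lists at 205, in 1 list at 124 and in none at 66 (7.35%, 95% Wilson interval 5.82% to 9.24%). WT-only regions were unlike them in this respect, since 1762 of 1963 (89.8%) had no peak in any full KO list. The full KO lists are the shorter ones, so the shares of the 2 sets are not on one footing.

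**Figure D1:**
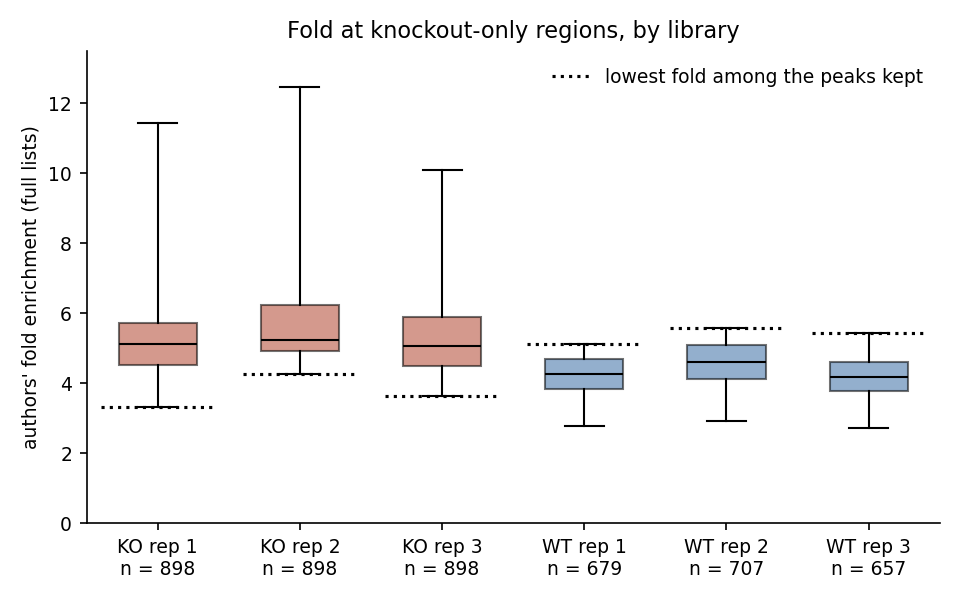
Fold enrichment given by the authors at KO-only regions, in the 3 KO libraries (left) and, where the full list holds a peak, in the 3 WT libraries (right). Boxes span the quartiles with the median as a line, whiskers reach the lowest and highest value, and dotted lines mark the lowest fold kept in each list. WT medians of 4.19 to 4.62 lie under the WT limits of 5.13 to 5.59, and KO medians lie at 5.05 to 5.25.

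Within the 503 members with a peak in all 6 full lists, the log2 KO over WT fold (mean log2 fold in KO minus that in WT) had a median of 0.28, beside −0.39 at the regions called in all 6. It was above 0 at 461 of the 503 and reached 1 at 4, and it was above 0 at 3102 of the 20727 regions called in all 6. The lowest KO fold lay above the highest WT fold at 182 of the 503 members (36.2%), beside 664 (2.82%) of the 23555 merged regions with a fold in all 6 full lists. The same contrast chose the members, so nothing is read from that gap. In pileup, which is not scaled for depth, the order was the other way at most of them: the mean pileup was higher in KO at 106 of 503. Library medians of the pileup were 15 to 17 reads in KO, over all 898 members. In WT they were 18 to 19, over only the 679, 707 and 657 members with a peak in the full list of replicates 1 to 3. A pileup of 16 carries an exact Poisson interval of 9.15 to 26.0, which covers counting error only. At this depth the fold difference of a typical member is smaller than the counting error of a single library.

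The position of the limit decided part of the membership. At 226 members (25.2%) the strongest WT peak came within 10% of the −log10 p at which its list was shortened. At 82 members (9.13%) a WT peak tied with that limit and was left out only by the tie rule, which goes by chromosome and start. Of these 82, the first 3 by chromosome and start were chr1:123106904-123107728, chr2:9454212-9456182 and chr2:9494469-9497797. Each had a WT replicate 2 peak at the limiting value of 12.4. Just outside, the first 3 by position were chr1:21607768-21608301, chr1:92583275-92585036 and chr1:123018748-123020479. Each had a WT peak that stood at the limit of its own list and was kept. KO replicate values among these 6 ran from 4.49 to 15.04, with no gap between the sides.

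A look-up in left-out libraries used the same shortened lists and the same contrast as the rule. Regions were chosen as KO-only from 2 KO and 2 WT lists, merged without the other 2, and then looked up in the remaining KO and WT lists, for each of the 9 possible pairs. From 1749 to 2082 regions were chosen per pair. Of these, 61.1% ± 3.41 were found in the left-out KO list and 18.8% ± 2.47 in the left-out WT list (mean ± SD over 9 pairs, which share libraries). The difference of 42.3 points ranged from 36.3 to 46.4, so that it had the same direction in 9 of 9 pairs. WT-only regions chosen in the same way were found at 77.4% in the left-out WT list and 21.3% in the left-out KO list. For comparison, regions called in both choosing KO lists, whatever their WT state, were found at 91.8% in the left-out KO list and 89.5% in the left-out WT list. KO-only regions were found again less often than KO regions at large in both genotypes. Absence from 2 WT lists was required of the chosen regions and not of the comparison, so the WT shares are not on one footing. By library, recovery was 61.2%, 57.3% and 64.9% in KO replicates 1 to 3, against 20.5%, 20.03% and 15.9% in WT replicates 1 to 3. Regions found again in KO meet nearly the same rule as KO-only regions with 1 WT library left out. They numbered 1103 to 1192 per pair, beside 1099 to 1179 under that rule, so the look-up is not separate from the membership. No test was made, because 9 pairs from 6 libraries are not independent.

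**Figure D2:**
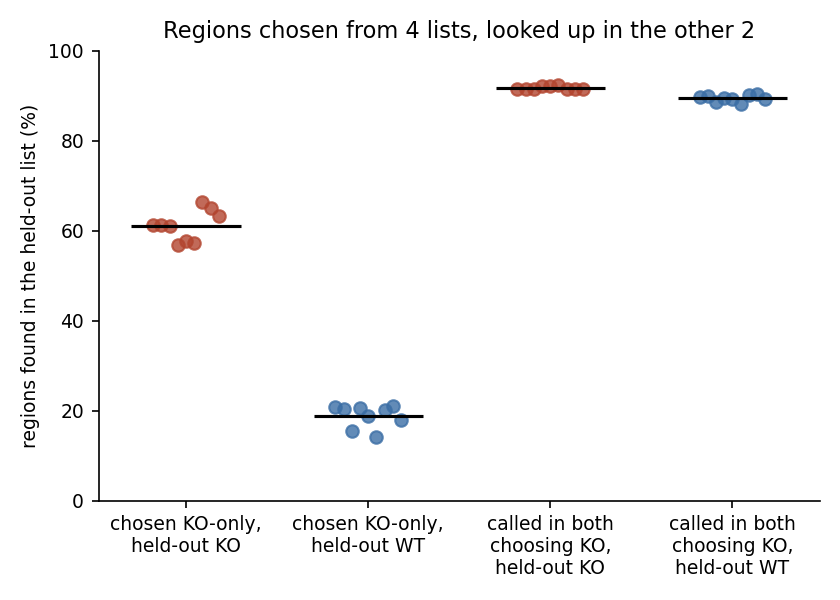
Share of regions, in percent, found in a KO or WT list that was not used to choose them, with a point for each of the 9 pairs of left-out libraries and a line at the mean. Regions chosen as KO-only from the other 4 lists (left) were found at 56.9% to 66.4% in KO and 14.2% to 20.99% in WT, while regions called in both choosing KO lists (right) were found at about the same level in either genotype, 91.8% and 89.5% on average.

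Summits were less sharply placed at KO-only regions than elsewhere. The 3 KO summits fell within 250 bp of each other at 434 of 898 members (48.3%, Wilson interval 45.1% to 51.6%), beside 81.1% of the regions called in all 6. Members were wider than many single peaks after merging, with a median of 1000.5 bp, but among regions of at most 1500 bp the shares were still 62.7% and 88.6%. For the 503 members with WT peaks, the KO and WT summits lay a median of 125 bp apart, beside 44 bp at regions called in all 6. Peak strength was not matched in this comparison, and its part in the spread was not tested.

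KO-only regions lay over gene starts less often than regions at large and more often than WT-only regions. Of the 898, 127 (14.1%, Wilson interval 12% to 16.6%) came within 1 kb of the start of a protein-coding gene, beside 45.9% of the 20727 regions called in all 6, 23.5% of all merged regions and 2.19% of the 1963 WT-only regions. A further 254 (28.3%) lay inside a gene record away from its start, and 414 (46.1%) were over 50 kb from any start, beside 61.2% of WT-only regions. At list lengths of 33055, 25000 and 15000 peaks the KO-only regions numbered 898, 627 and 482, and the share at gene starts was 14.1%, 22% and 52.1%. All merged regions had 23.5%, 31.0% and 44.6% at those lengths, so that only at the shortest length did KO-only regions exceed the merged regions. For genes, 135 of 20033 (0.674%) had a KO-only region at the start, 305 (1.52%) had one inside, and 1075 (5.37%) had one inside or within 50 kb. RefSeq gives no strand for 4192 of these genes in the table used, and for them a region at either end was counted.

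The 10 strongest members, by mean percentile over the 3 KO lists, were mostly intergenic. The first, at chr4:165843941-165844983 and 28254 bp from TLL1, which encodes a tolloid-like metalloprotease, had folds of 10.2, 12.5 and 8.70 in the KO libraries, against 4.91, 4.62 and 4.82 in the WT libraries. Near SMARCA2, an ATPase of the SWI/SNF remodellers, the region chr9:1979640-1980752 lay 34595 bp away and had folds of 11.4, 11.5 and 7.58 in KO, against a single WT peak of 3.14 in replicate 3. At both, every KO value was above every WT value listed. A region 9887 bp from IRX2, a homeobox factor of development, had 9.03, 8.85 and 9.54 in KO, against 4.61 in WT replicate 3 and no other WT peak (chr5:2761564-2762264). Inside SAMD5, KO folds were 9.33, 9.83 and 7.58, against WT folds of 4.70, 5.35 and 4.61. The remaining members of this group were those at SYT3 and inside ARHGAP15, and 4 that lay from 135097 bp to 2305023 bp from the nearest protein-coding gene. How uniquely reads are placed at those 4 was not checked. Even these strongest members had a mean percentile of only 61.4 to 69.9 within the KO lists, and 12 of all 898 were in the upper 50% of all 3 lists.

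At gene starts, the strongest member covered SYT3, a synaptotagmin that senses calcium in vesicle release, and also lay within 1 kb of an end of SHANK1, a postsynaptic scaffold (chr19:50657908-50658667). Its folds were 10.8, 11.1 and 7.86 in KO, against 4.06, 5.10 and 5.24 in WT, a log2 ratio of 1.04. PDE11A, a phosphodiesterase of cyclic nucleotides, had 6.62, 9.18 and 7.58 in KO, against 4.70, 5.35 and 5.24 in WT (chr2:178072210-178073279). All KO values were above all WT values at both genes. WIZ, a zinc finger partner of the G9a and GLP histone methyltransferases, had 8.13, 11.5 and 5.05 in KO, against 3.98 in WT replicate 3 alone (chr19:15449350-15450395). ZNF160, of the KRAB zinc finger family, had 7.82, 8.85 and 5.89 in KO, against 4.27, 4.13 and 4.40 in WT (chr19:53102972-53103722). The SD among KO libraries was 3.21 at WIZ and 1.50 at ZNF160, so the size of the difference is poorly fixed at WIZ in particular.

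Genes with an immune or chromatin role were among the starts too. MX2, an interferon-induced GTPase, had 7.22, 6.56 and 7.86 in KO, against 4.27, 4.62 and 5.03 in WT (chr21:41361427-41362803). NCOA6, a coactivator subunit of the KMT2C and KMT2D complexes in which KDM6A works, had 8.13, 7.87 and 4.77 in KO, against 3.84, 4.13 and 5.24 in WT (chr20:34824770-34825944), so that KO replicate 3 lay below WT replicate 3. CREBBP, a histone acetyltransferase, overlapped likewise, with 5.72, 8.85 and 4.49 in KO and 4.70, 5.10 and 5.03 in WT (chr16:3879575-3880183). The other starts named by the rule were OR1F1, an olfactory receptor, XYLT2, which starts proteoglycan chains, MT1F, a metallothionein, RHBDF1, LAMA5, a laminin chain, STOX2, SNN, EFCAB6, and PTK7, a pseudokinase of Wnt signalling. Their mean KO folds ran from 6.56 at LAMA5 to 7.31 at OR1F1. The PTK7 region also lay within 1 kb of a start or end of KLC4. RHBDF1 and PTK7 had a peak in 2 full WT lists, SNN in 1 and the others in 3. At OR1F1 the folds were 6.02, 7.21 and 8.70 in KO, against 4.06, 4.62 and 3.77 in WT, and at LAMA5 they were 7.22, 6.56 and 5.89 in KO, against 4.48, 3.89 and 4.61 in WT. MT1F had 4.82, 7.87 and 8.98 in KO, against 3.42, 5.59 and 3.98 in WT. KO and WT values overlapped at MT1F and were apart at OR1F1 and LAMA5. MT1F belongs to a family of closely similar copies, so its peak is uncertain.

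CEBPA, the leading factor of granulocyte development, had 5.12, 6.88 and 6.73 in KO, against 5.59 and 5.24 in WT replicates 2 and 3 and no peak in replicate 1 (chr19:33302264-33303009). A second member 32318 bp from CEBPA had 5.42, 4.59 and 5.05 in KO and no WT peak in any full list. HBA1, an alpha globin gene, had 6.62, 6.56 and 4.77 in KO, against 3.89 and 3.14 in WT replicates 2 and 3 (chr16:176073-177448). HBA1 and HBA2 are near-identical copies, so reads from either could be placed at the other. TBX21, the T-bet factor of T and natural killer cells, had 3.91, 6.23 and 4.49 in KO, against 3.63 and 4.13 in WT replicates 1 and 2 (chr17:47732888-47733629). CEBPA and TBX21 had overlapping values, and HBA1 had every KO value above its WT values.

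Across 17 gene lists, 27 of 473 genes (5.71%) had a KO-only region inside or within 50 kb, beside 5.37% of all protein-coding genes. At the start the counts were 6 of 473 (CEBPA, HBA1, TBX21, MX2, CREBBP and NCOA6) and 0.674% of all genes. Myeloid and erythroid genes had the highest share, 5 of 23 or 21.7% (CEBPA, ELANE, HBA1, HBA2 and KLF1), with 1 region shared between HBA1 and HBA2. All 5 lie on chromosomes 16 and 19, 2 of the chromosomes with more KO-only regions than the genome as a whole. A region counted for a list gene can lie in another gene, as the ELANE region lay inside CFD. Of the 35 genes of the KDM6A, KMT2 and polycomb complexes, 5 had one nearby: ARID1A, a SWI/SNF subunit, ASXL1, CREBBP, EED, the polycomb subunit that reads the histone mark, and NCOA6. EED had 3.61, 6.23 and 3.93 in KO, against 4.70 and 4.40 in WT replicates 1 and 3, at a region 3862 bp away, with overlapping values. Interferon genes numbered 2 of 37 (MX1 and MX2), developmental transcription factors 3 of 65 (IRX2, OLIG2 and TBX1), and NF-kB pathway genes 2 of 21 (NFKBIZ and TNFAIP2). Growth factor and cytokine signalling had 3 of 35, including FGFR3, the receptor joined to the immunoglobulin locus in part of myelomas, and IL6ST, the shared signalling chain of the receptors for interleukin-6. At IL6ST the folds were 4.82, 5.25 and 7.30 in KO, against 4.06, 4.86 and 4.40 in WT, which overlap. Class II presentation, B cell, HOX and adhesion genes had none, and plasma cell identity had FCRL5 alone. No set test was made, and the 2 highest shares are 21.7% and 14.3%.

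Among the list genes away from starts, JUNB, a subunit of the AP-1 factor, had 3 members within 50 kb. All 3 lay at other genes. The nearest, 7935 bp from JUNB, covered the starts of PRDX2 and THSD8. It had 6.02, 6.88 and 5.61 in KO, against 4.91, 5.35 and 4.61 in WT, with no overlap (chr19:12801250-12802309). Another, at chr19:12838157-12838991, lay inside MAST1 and also counts for KLF1, the erythroid factor. It had 4.51, 7.87 and 4.49 in KO, against 3.42, 4.62 and 3.14 in WT. The third, chr19:12833625-12834536, overlapped the promoter window of RTBDN and also counts for KLF1. MX1, the neighbour of MX2 in the interferon response, had a member 18292 bp away, which lay inside another gene, TMPRSS2. It had 5.72, 7.54 and 6.73 in KO, against 4.70, 4.86 and 3.56 in WT (chr21:41477506-41479025). This member and the one at MX2 were separate regions. At both, all KO values were above all WT values, as at 182 of the 503 members with a peak in all 6 full lists. The same contrast chose the members. Inside ARID1A the folds were 3.91, 6.23 and 5.89 in KO, against 3.84, 5.10 and 4.82 in WT, and they overlapped. Near FGFR3 a member 24571 bp away had 4.21, 6.23 and 6.17 in KO, against 3.63, 4.37 and 4.40 in WT, and another 841 bp away had 4.21, 5.57 and 4.49 in KO, against 4.06 in WT replicate 1 only. Inside CCND2, a cyclin driven by translocation in some myelomas, KO had 5.72, 4.59 and 5.33, against 4.70 and 4.62 in WT replicates 1 and 2. The housekeeping gene GAPDH also held a member over the end of its record, where it also overlapped IFFO1 within 1 kb of a start or end of that gene. Its folds overlapped, at 6.32, 5.24 and 4.49 in KO, against 4.48, 5.10 and 5.03 in WT. Near OLIG2, a neural factor, the mean fold was 4.70 ± 0.79 in KO and 4.73 ± 0.35 in WT (SD, n = 3 each), so that membership there came with no higher fold in KO.

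The members were spread unevenly over the chromosomes. Leaving out Y, where 1 of 27 regions was KO-only, shares of merged regions that were KO-only were highest on chromosomes 22 (6.36%, Wilson interval 5.07% to 7.96%), 21 (5.15%), 19 (4.38%) and 20 (3.65%), and lowest on chromosomes 13 (0.567%), 7 (0.645%) and 6 (0.679%), beside 1.85% overall. On chromosome 22, the 1 Mb bins from 10 to 14 Mb held 5, 7, 6 and 6 of its 70 members. The strongest of these, chr22:13885712-13887781, lay 1640411 bp from the nearest protein-coding gene. On chromosome 21, the bins from 9 to 12 Mb held 9, 6 and 4 of its 46 members. How uniquely reads are placed in these bins was not checked. Chromosomes 16, 17, 19, 20, 21 and 22 together held 299 of 7332 regions as KO-only (4.08%), against 599 of 41324 (1.45%) elsewhere. They gave 33.3% of the members and 15.1% of the merged regions, and this share of members was 40.03% and 49.6% at 25000 and 15000 peaks per list. These 6 are also the chromosomes, Y aside, with the highest ratio of KO to WT fold at regions called in all 6. Their gap in that ratio is therefore not a separate result. Chromosomes 2 and 3, at 2.84% and 3.14% KO-only, are outside the group, while chromosome 17, at 2.61%, is in it. At regions called in all 6, the median log2 ratio of KO to WT fold, set against the genome median of −0.39, was 0.36 on these 6 chromosomes and −0.05 on the others. Over 23 chromosomes, without Y, the KO-only share and this ratio correlated at r = 0.88 and rho = 0.78, as a description, since the points share the 6 libraries, their depth and base composition. The WT-only share ran the other way, at r = −0.92.

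**Figure D3:**
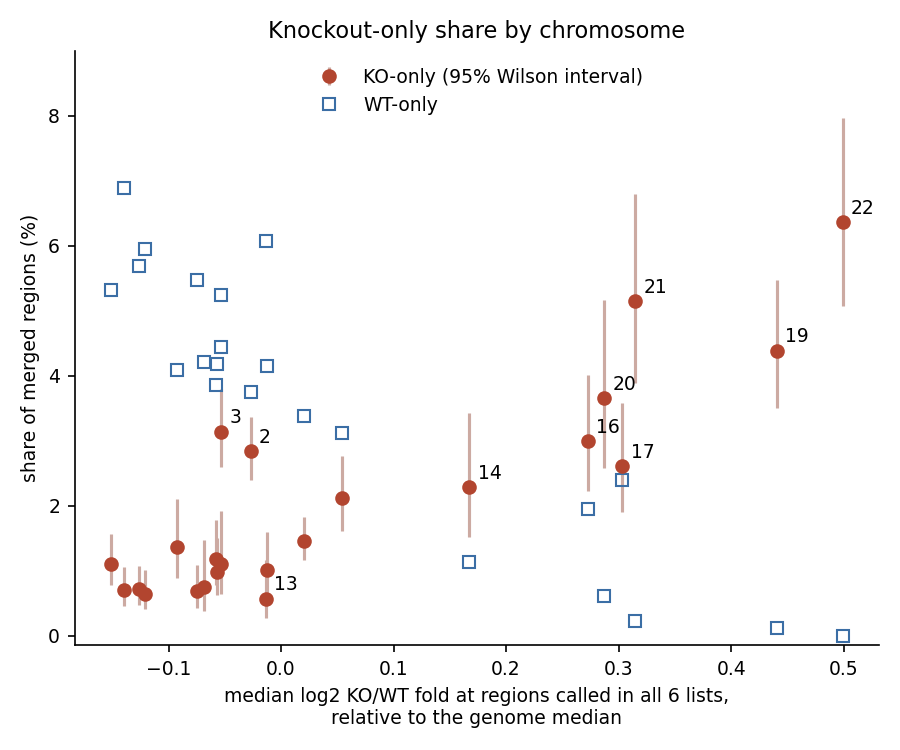
Share of merged regions that were KO-only (filled circles, with 95% Wilson intervals) or WT-only (open squares) on each chromosome but Y, against the median log2 KO over WT fold of regions called in all 6 lists on that chromosome, relative to the genome median. Chromosomes 16, 17 and 19 to 22 lie to the right, with a pooled KO-only share of 4.08%, and chromosomes 2 and 3 stand above the others near 0 at 2.84% and 3.14%.

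The same held at a finer scale. In 5 Mb bins whose regions called in all 6 stood over 0.3 above the genome median on the log2 scale, 4.12% of merged regions were KO-only, and in bins below −0.3 the share was 0.321%. The bins between rose in order, at 0.590%, 1.40% and 3.25%. The bins over 0.3 numbered 62 and held 310 of the members. Members had a median bin ratio of 0.26, WT-only regions of −0.17 and all merged regions of −0.04. This regional shift of the fold moved with the KO-only share, and its part in the choice of members was not tested.

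Within chromosomes, 188 members (20.9%) were packed in 3 segments, made of the 8 of 2893 bins of 1 Mb with at least 10 members each. They were picked after their values were seen. On chromosome 3, from 12 to 14 Mb, 77 of 372 merged regions (20.7%) were KO-only, beside 0.588% in the flanking 5 Mb on either side. On chromosome 12, from 35 to 37 Mb, 32 of 285 (11.2%) were, beside 1.29% in its flanks. On chromosome 2, from 9 to 13 Mb, 79 of 937 (8.43%) were, beside 2.62%. Members were thus several times as dense in each segment as in its flanks, while members outside the 3 segments made up 1.51% of the merged regions there. In the chromosome 12 segment no member was at a gene start. Its strongest member, chr12:35549238-35552053, lay 1520936 bp from ALG10, the nearest protein-coding gene. How uniquely reads are placed in that segment was not checked.

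The peaks in these segments were weak, with median folds of 4.49 to 4.82 in the full KO lists and 3.77 to 4.13 in the full WT lists. In the segment on chromosome 3 the full lists held 328, 349 and 363 peaks in KO, against 200, 210 and 174 in WT, and the shortened lists kept 328, 205 and 297 in KO, against 44, 42 and 40 in WT. KO was above WT in the full lists as well there. On chromosome 2 the full lists held 791, 866 and 866 peaks in KO, against 948, 939 and 925 in WT, so that the order turned only with shortening, which kept 791, 620 and 675 in KO and 208, 177 and 152 in WT. On chromosome 12 the full lists held 185, 215 and 243 in KO, against 289, 252 and 245 in WT, and the shortened lists 185, 143 and 221 in KO and 54, 33 and 29 in WT. Median member widths were 1883, 2190 and 2135 bp on chromosomes 2, 3 and 12, above the 1000.5 bp of all members. The regional log2 ratio at regions called in all 6 was 0.36 on chromosome 3 and 0.37 on chromosome 12, but −0.02 on chromosome 2, and its part in the result was not tested.

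**Figure D4:**
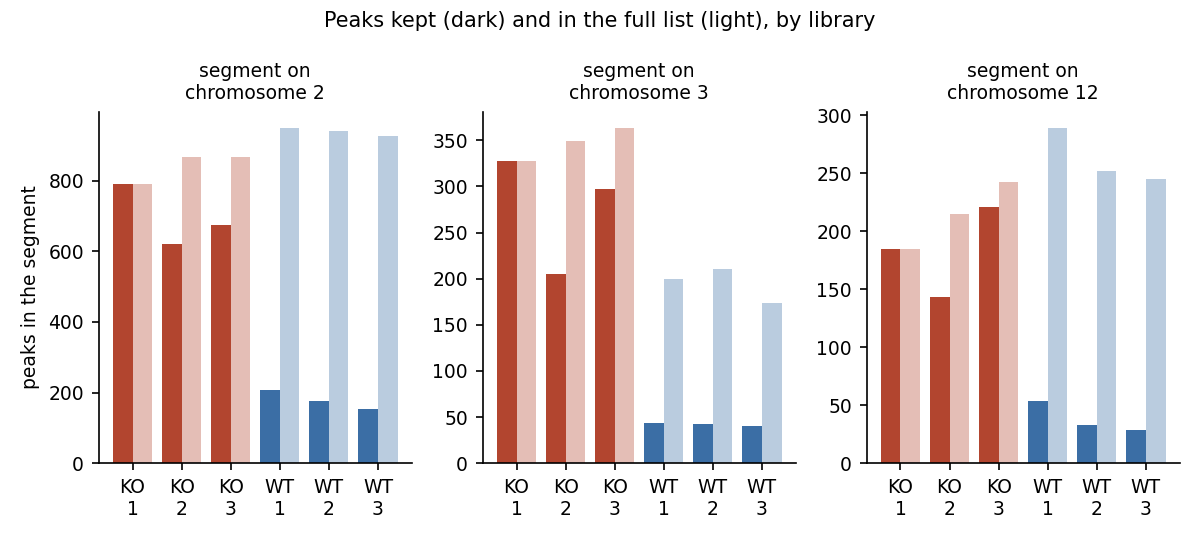
Peaks in the 3 segments with the densest KO-only regions, by library, with the KO libraries left of the WT libraries; dark bars count peaks among the 33055 kept per list and light bars those in the full list. On chromosome 3 KO exceeds WT in both, at 328 to 363 against 174 to 210 peaks in the full lists, and on chromosomes 2 and 12 only in the shortened lists.

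Genes with many members lay in the segments on chromosomes 2 and 3. IQSEC1, an exchange factor for ARF GTPases, had 34 members among the 110 merged regions inside its record, and 39 among the 138 inside or within 50 kb (chr3:12897043-13283257). LPIN1, a phosphatidate phosphatase of fat synthesis, had 12 of 73 in that range. NUP210, a nuclear pore protein, had 10 of 54, GREB1 10 of 73 and TMEM40 10 of 49. PPARG, the fat cell receptor, had 9 of 68. These genes share members, because their windows overlap. Of the 188 members in segments, 5 (2.66%) were at a gene start, against 122 of 710 (17.2%) outside them.

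The segments and chromosomes 16, 17, 19, 20, 21 and 22 were picked with all 6 libraries in view, so the look-up in left-out libraries is not independent of the choice there. Regions outside both, when chosen from 4 lists, were found at 55.8% in the left-out KO list and 22.1% in the left-out WT list.

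Promoters at KO-only regions were rich in G and C. The 74 members that overlapped a promoter window covered 87 windows, whose median G and C content was 72.7% (quartiles 65.0% and 77.2%), beside 66.3% for the 11313 windows at regions called in all 6, 48.0% for 23 windows at WT-only regions and 62.3% for all 22198. The GC box was in 72 of the 87 windows (82.8%), beside 74.3% at regions called in all 6 and 56.3% of all windows. The CCAAT box was in 18 (20.7%), beside 36.6% and 34.7%, and the ETS core in 16 (18.4%), beside 20.3% and 12.8%. AP-1 (TGANTCA) was in 7 (8.05%), beside 3.56% and 6.15%, and the TATA box (TATAAA) in 4 (4.60%), beside 4.53% and 9.47%. CRE (TGACGTCA) was in 0 of 87, which allows up to 3.45%, beside 3.30% and 2.26%. The motifs may overlap one another, both strands were searched, and G-rich windows hold the GC box more readily.

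The fold ratio itself moved with promoter composition in regions the rule did not choose. Among 7959 regions at promoters that were called in all 6, sorted into quintiles by G and C content, the median log2 KO over WT fold relative to the genome median was −0.01, 0.06, 0.11, 0.14 and 0.23 from the lowest quintile to the highest. Within each quintile the 6 chromosomes named above, which are those with the highest ratios, stood above the rest. The values were 0.31 and −0.07 in the lowest quintile and 0.52 and 0.15 in the highest. Across these regions rho was 0.23, as a description over regions of 6 shared libraries. The part of base composition in the choice of members was not tested.

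**Figure D5:**
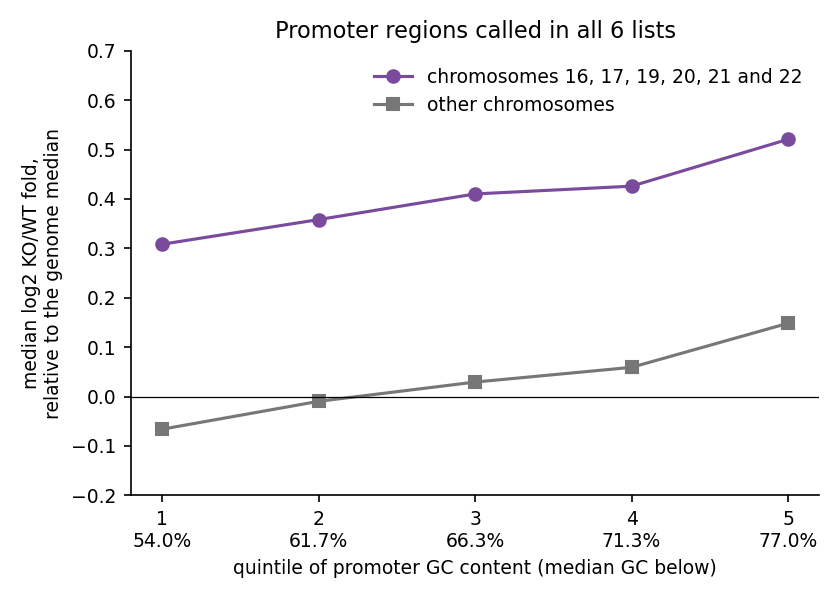
Median log2 KO over WT fold, relative to the genome median, of promoter regions called in all 6 lists, by quintile of promoter G and C content (x axis, with the median content of the quintile), for chromosomes 16, 17, 19, 20, 21 and 22 (circles) and the other chromosomes (squares). Both lines climb from left to right, and the circles lie above the squares in every quintile.

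The 66 members with no peak in any full WT list are the closest to regions open in KO alone. Their mean KO fold had a median of 5.18 and ran from 4.04 to 9.57, beside a median of 5.22 over all members. Of these, 35 lay inside a gene record, 3 at a gene start and 34 over 50 kb from any start. The segment on chromosome 3 held 12 and chromosomes 16, 17, 19, 20, 21 and 22 held 15. The strongest, chr5:48001403-48001806, had folds of 8.13, 12.5 and 8.14 in KO and no WT peak, and lay 2305023 bp from the nearest protein-coding gene. How uniquely reads are placed there was not checked. Next came chr3:194824134-194825306, 135097 bp from FAM43A, with 10.2, 8.52 and 8.98, and chr2:143720133-143721004 inside ARHGAP15, a GTPase-activating protein for Rac, with 9.33, 9.83 and 7.58. All 3 had KO folds well above the lowest fold listed in any full WT list, 2.72 to 2.92. Among the next, GABRG3, a subunit of the receptor for the transmitter GABA, had 6.62, 7.87 and 6.45 in KO. FAT3, a giant cadherin, had 5.72, 6.88 and 7.30, and DAB1, an adaptor of reelin signalling, had 5.42, 6.23 and 6.45. Others of the 10 strongest were near ATP10A and EPM2A and inside ENTREP2, with mean KO folds of 6.39 to 7.72. Chromosome 15 held 8 of the 66, among them the regions in GABRG3 and ENTREP2 and near ATP10A, and chromosome 3 held 14.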

How the data were processed

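Accessible regions were measured by ATAC-seq in 6 ARP1 libraries, 3 KDM6A KO and 3 WT, grouped by their titles. Per the submitters' processing notes, Trimmomatic, FastQC, MultiQC, Bowtie2 and MACS2 2.1.2 were used with GRCh38; their settings, and whether duplicates were removed or reads shifted for Tn5, are not given in the sources read here. Peaks were called per library. The deposited lists give each peak a score, a fold over background (a ratio), a −log10 p and a −log10 q, all made by the authors' peak caller. Below a fold of 100, all deposited fold values were whole multiples of a single step per library (tolerance 0.01), from which pileups and the background were recovered.

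Lists were shortened by −log10 p to 33055 peaks and merged, and regions, gene starts (1 kb) and gene neighbourhoods (50 kb) were counted with Python 3.11.15, pandas 2.3.3, numpy 2.4.6 and scipy 1.17.1. Genes came from RefSeq tables of GRCh38.p14, in which 473 of 474 list genes matched; promoter windows covered 250 bases before to 50 after a start. No genome was used, so region sequences were not read. Wilson intervals are at 95% and cover counting error only, as does the limit of 3 counts for a count of 0. The code was tested on simulated data.

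The members, gene lists and segments were chosen with earlier results of these data known. Regions named were the 10 strongest members by mean KO percentile, the 10 strongest without a full WT peak, up to 15 at gene starts plus CEBPA, HBA1, MX2 and NCOA6, the 6 genes with most members, the bins with most members, list genes with a member, and 3 regions on either side of the list limit; PPARG was added after its count was seen. Some items that this rule names are not reported here. Alternatives were ranking by fold, 25000 or 15000 peaks, a −log10 q of at least 5, summits within 250 bp, other overlap and presence rules, autosomes only, windows of 500 bp and 2 kb, bins left out, each library left out and same-numbered pairs.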

Additional observations from a re-analysis of the deposited data

How the results depend on the processing

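The count of KO-only regions, 898, stayed within 1.5 times under 12 of 19 alternatives, and it was 482 with 15000 peaks per list, 2810 when 2 of 3 KO lists sufficed, 66 when the full WT lists had to be empty and 588 without the 5 Mb bins over 0.3. Without each library in turn it ran from 1099 to 1654, the highest without KO replicate 2; without KO replicate 1 it was 1528. The share at gene starts, 14.1%, was 22% with 25000 peaks, 52.1% with 15000, 18.3% by summits, 9.502% for 2 of 3 KO lists, 4.55% with empty full WT lists, 19.6% at a −log10 q of at least 5, 9.86% without those bins and 17.2% without the 3 segments, an alternative added after seeing the data; leaving out a library gave 9.25% to 17.8%. The share with no full WT peak, 7.35%, was 1.91% with 25000 peaks, 0.415% with 15000, 14.02% for 2 of 3 KO lists and 4.38% at that −log10 q, and 9.33% to 11.99% without a library; with the full WT lists required to be empty it is fixed by construction. The left-out difference of 42.3 points was 38.7 without the 3 segments and 40.9 to 43.8 without a library, and no other alternative moved it beyond its spread. Keeping all or none of the tied peaks, added after seeing the data, gave 896 and 827 regions. Ranking by fold, counted among the alternatives, could not change a value, because fold and −log10 p rank the peaks of a library alike. Fewer lists to satisfy gives more regions by construction; other causes were not tested. The replicate block, which kept the 3 same-numbered pairs, gave 41.6 points. Deviations of same-numbered libraries correlated at −0.02, 0.00 and −0.19, and those of differently numbered libraries at −0.11 to 0.12. Such small values of both signs do not decide whether the numbers pair the libraries. A typical member rested on 16 reads of pileup in KO, and the part of depth in the calls was not tested.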
